A study of Mus musculus with 170 samples.

Results

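Cardiac electrical activity rests on sodium, potassium and pacemaker channels and on small proteins that traffic or modulate them. Transcript levels of 8 such genes were followed in single cells of the E9.5 mouse ventricle, in control and Dgcr8 conditional knockout embryos. Rangrf and Ncs1 encode partners of channels, Kcnd2, Kcnd3, Kcnip2, Kcnh2 and Kcnq1 encode potassium channel subunits, and Hcn4 encodes a pacemaker channel. They are 8 of the 40549 genes in the table and were picked by name, with their levels in these cells already known. In particular, Rangrf and Ncs1 were included because both were lower in cKO cells, so that difference is given as a description.

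Control cells, labelled wild type, came from Dgcr8 loxP/loxP embryos with the ROSA26 mT/mG reporter and no Cre. The conditional knockout (cKO) cells, labelled Mesp1Cre/+ with Dgcr8-/-, carried the same floxed alleles and reporter together with Cre at the Mesp1 locus, which is active in mesoderm progenitors of the heart. The protein made from Dgcr8 works with the nuclease Drosha to release microRNA hairpins from primary transcripts. All embryos were C57BL/6 at embryonic day 9.5, and the cells fell into 2 sequencing batches. Smart-seq2 libraries with values in the table came from 74 control cells, 35 of them in batch 1 and 39 in batch 2. The cKO cells numbered 69, split 35 and 34.

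In a working heart cell, sodium channels carry the fast upstroke of the action potential. Rangrf, also known as MOG1, binds the GTPase Ran and promotes delivery of sodium channels to the membrane. Kcnd2 and Kcnd3 form the pore of the transient outward potassium channel, Kcnip2 is its main auxiliary subunit in the heart, and Ncs1 is an EF-hand calcium sensor that binds the same pore proteins. Kcnh2 and Kcnq1 carry the rapid and the slow delayed rectifier currents of repolarization, and Hcn4 passes the inward current that opens on hyperpolarization and paces the sinus node and the early heart tube.

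The comparison was made in cardiomyocyte-like (CM-like) cells, a cluster of 91 cells in which all 15 cardiomyocyte markers stood above the other cells. It held 26 of 74 control cells (35.1%, exact 95% interval 24.4 to 47.1) and 65 of 69 cKO cells (94.2%, interval 85.8 to 98.4). Levels are mean log2(TPM + 1), where TPM is abundance per transcript length scaled to a fixed total, with the SD across cells. Because the labels name no embryo or litter, each genotype is 1 sample and no difference was tested. TPM keeps no sequencing depth, and the number of detected genes per CM-like cell (TPM above 0) stood in for it. Its median was 8457 in control batch 1, 9704 in control batch 2, 9877 in cKO batch 1 and 7786 in cKO batch 2. Mitochondrial transcripts took a median of 6.27% of TPM in control and 2.90% in cKO CM-like cells. Of the 15 markers that define the class, Tnni3, Myl2 and Myl3 were themselves lower in cKO cells by 2.23, 3.58 and 2.45 log2 units, and Ttn was higher by 1.42. Dgcr8 averaged 2.62 in control and 2.45 in cKO cells of batch 1, and 2.02 and 1.00 in batch 2. Values per gene still count transcripts that lack a deleted exon, which makes Dgcr8 a weak test of how the cells were labelled. Genotype also coincided with sex-linked transcripts. The X-linked Xist reached a TPM of 1 in 0 of 26 control and 62 of 65 cKO cells, the Y-linked Ddx3y in 18 of 26 and 0 of 65, and the 2 differences cannot be told apart.

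Rangrf, on the minus strand of chromosome 11 (GRCm38, chr11:68972484-68975185), was high in most control CM-like cells and low or undetected in most cKO cells. In control cells of batch 1 its log2(TPM + 1) ranged from 0.00 through a median of 6.19 to 8.07, and in batch 2 from 0.00 through 6.74 to 7.98. The 32 cKO cells of batch 1 ranged from 0.00 through 1.88 to 7.21, and the 33 of batch 2 from 0.00 through 0.00 to 7.16. The ranges overlapped in both batches, but the typical cell of either batch stood far lower in cKO. The mean was 5.40 ± 2.82 (SD, 26 cells) in control and 2.09 ± 2.74 (65 cells) in cKO, a difference of -3.31 pooled, -2.09 in batch 1 and -4.82 in batch 2. Among the 14997 genes with TPM above 0 in more than 10 CM-like cells, 5 had a more negative difference. Rangrf was chosen for being lower in these same cells, so its rank is a description and nothing is read from it. The median difference of all these genes was 0.06, with 0.19 in batch 1 and -0.17 in batch 2.

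Detection of Rangrf was lower in cKO cells and split by batch. A TPM of at least 1 was reached in 15 of 18 and 7 of 8 control cells, against 23 of 32 cKO cells in batch 1 and 7 of 33 in batch 2. The pooled shares were 84.6% (interval 65.1 to 95.6) in control and 46.2% (interval 33.7 to 58.97) in cKO. In the cells that reached a TPM of 1, the mean level was 6.38 in control and 4.53 in cKO, so both the share of cells and the level per positive cell were lower. The cKO cells of batch 2, with the lowest share, also had the fewest detected genes, and the part of depth in this batch split was not tested. Restricted to the 16 control and 30 cKO cells with 7786 to 9848 detected genes, Rangrf was still found in 13 control and 15 cKO cells, at means of 5.33 and 2.25. In batch 1 of that range it was found in 10 of 12 control and 9 of 14 cKO cells, at means of 5.45 and 2.66. In batch 2 it was found in 3 of 4 control and 6 of 16 cKO cells, at means of 4.96 and 1.90. Reads of Rangrf and of Slc25a35, a mitochondrial carrier gene on the opposite strand, overlap in exons, and the libraries do not keep strand. Slc25a35 itself averaged 0.48 in control and 0.09 in cKO, and the sum of both genes differed by -3.32.

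Ncs1, on the plus strand of chromosome 2 (chr2:31245823-31295989), was the other partner that stood lower in cKO cells. Control cells ranged from 0.08 through a median of 6.09 to 8.73 in batch 1 and from 0.00 through 6.23 to 7.43 in batch 2. The cKO cells ranged from 0.00 through 2.05 to 6.71 in batch 1 and from 0.00 through 0.37 to 6.04 in batch 2. As for Rangrf, the ranges overlapped and the medians lay well apart in each batch. The means were 5.25 ± 2.56 in control and 2.45 ± 2.49 in cKO, a difference of -2.81 pooled, -2.41 in batch 1 and -3.37 in batch 2. A TPM of 1 was reached in 23 of 26 control cells (88.5%, interval 69.8 to 97.6) and 34 of 65 cKO cells (52.3%, interval 39.5 to 64.9). Unlike Rangrf, Ncs1 was found at that level in similar shares of both cKO batches, 18 of 32 and 16 of 33. With 7786 to 9848 detected genes, it was found in 15 of 16 control and 14 of 30 cKO cells, at means of 5.90 and 2.26.

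**Figure D1:**
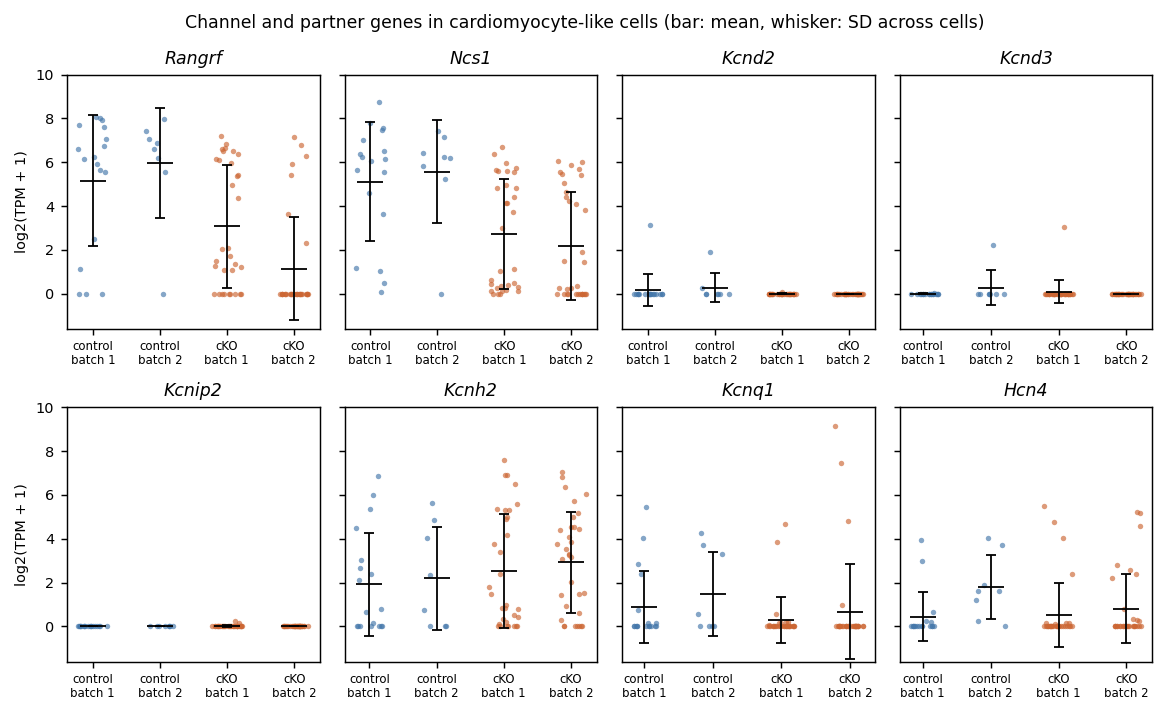
Level of each gene, log2(TPM + 1), in every CM-like cell by genotype and batch, with the mean (bar) and the SD across cells (whisker). Rangrf and Ncs1 cluster above 5 in control cells and spread down to 0 in cKO cells, while Kcnd2, Kcnd3 and Kcnip2 lie at or near 0 in nearly every cell.

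Most control cells held both partners, and fewer cKO cells did. Each partner alone was also found in fewer cKO cells, so the joint counts are not read as a link between the partners. At a TPM of at least 1, 20 of 26 control cells held both, 2 held Rangrf only, 3 held Ncs1 only and 1 held neither. In cKO cells, 18 of 65 held both, 12 held Rangrf only, 16 held Ncs1 only and 19 held neither. By batch, both were found in 15 of 32 cKO cells of batch 1 and in 3 of 33 of batch 2. Across cells Pearson's r between the partners was 0.54 in control (26 cells; 0.76 in batch 1 and -0.22 in the 8 cells of batch 2) and 0.15 in cKO (65 cells; 0.35 in batch 1 and -0.13 in batch 2). These cells share the amplification and the depth of their own library, so r is a description. With the number of detected genes, r was 0.28 for Rangrf and 0.53 for Ncs1 in control cells, and 0.30 and 0.18 in cKO cells. Cells were also grouped by the first number of their title, whose meaning is not given. Mean Rangrf ran from 4.10 to 7.42 over 11 such numbers in control and from 0.00 to 4.51 over 12 in cKO, and mean Ncs1 from 0.00 to 6.69 and from 0.69 to 4.25. Some numbers held only 1 control cell. The control value of 7.42 for Rangrf was 1 cell. The control value of 0.00 for Ncs1 was also 1 cell, with 3805 detected genes, the fewest of any CM-like cell.

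**Figure D2:**
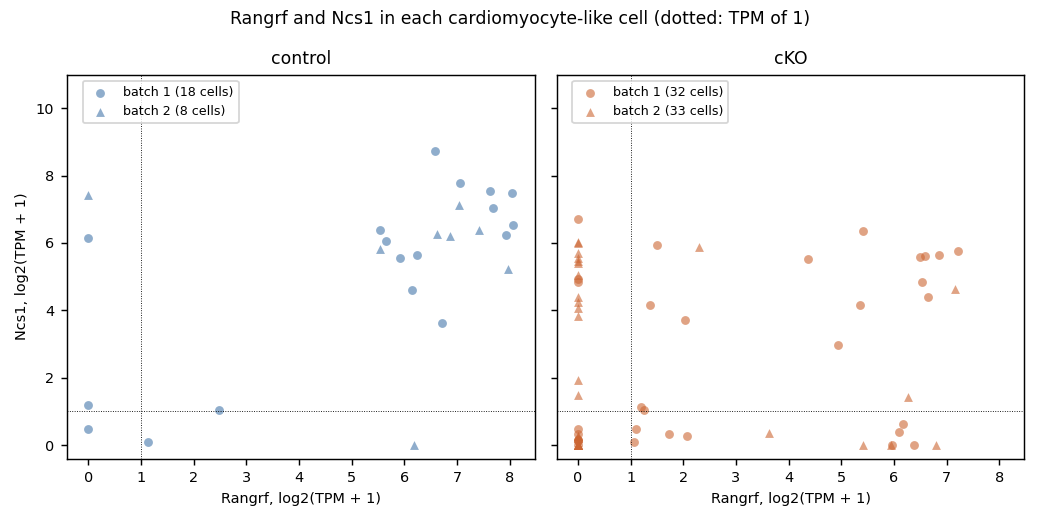
Ncs1 against Rangrf in each CM-like cell, both as log2(TPM + 1), for control (left) and cKO (right), with batches as circles and triangles and dotted lines at a TPM of 1. Most control cells sit in the upper right, and 19 of 65 cKO cells fall below 1 for both genes.

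Since both partners were lower, their promoters were read from RefSeq (GRCm38.p6), as the 300 bases around each start. Entries were found for 7 of the 8 genes. The capitals mark the SP-type GC box GGGCGG and the CCAAT box, on either strand. The Rangrf window lies at chr11:68973806-68974105 (minus strand), within the annotated spans of Rangrf and Slc25a35, and the Ncs1 window at chr2:31245673-31245972 (plus strand).
Rangrf: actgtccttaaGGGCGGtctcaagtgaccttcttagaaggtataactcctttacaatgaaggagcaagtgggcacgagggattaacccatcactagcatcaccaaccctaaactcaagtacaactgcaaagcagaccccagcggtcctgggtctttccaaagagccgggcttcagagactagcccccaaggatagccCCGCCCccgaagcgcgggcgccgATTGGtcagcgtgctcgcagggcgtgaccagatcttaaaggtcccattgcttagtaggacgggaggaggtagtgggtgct
Ncs1: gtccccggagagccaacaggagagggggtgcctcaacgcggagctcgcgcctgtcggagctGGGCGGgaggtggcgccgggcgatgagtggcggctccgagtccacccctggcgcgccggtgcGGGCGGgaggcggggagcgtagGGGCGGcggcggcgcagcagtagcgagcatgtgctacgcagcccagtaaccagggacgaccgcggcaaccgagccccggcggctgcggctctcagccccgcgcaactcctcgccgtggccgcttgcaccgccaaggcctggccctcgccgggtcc

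Rangrf had 2 GC boxes, 1 CCAAT box and 14 CpG dinucleotides in a window of 55.7% GC. Ncs1 had 3 GC boxes, no CCAAT box and 40 CpG dinucleotides, at 76% GC. Over all 32851 promoters in that table, 35.7% held GGGCGG, 37.4% held CCAAT and 13.6% held TATAAA, which neither gene had, with a median of 7 CpG dinucleotides and 52.7% GC. The channel genes held such boxes too. Kcnh2 had 3 GC boxes, Hcn4 and Kcnip2 had 2 each, Kcnd2 had 1 and Kcnd3 had none. Kcnip2 also had 2 CCAAT boxes. CpG dinucleotides in these channel windows ran from 18 in Kcnip2 to 31 in Hcn4, so the boxes and CpGs are not particular to the partners. The letters are a description of these windows, and no binding was measured.

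As Dgcr8 is needed for most microRNAs, the 3′ UTRs of all 8 genes (GENCODE on GRCm38, 1 transcript a gene) were also searched for perfect matches to the seeds (bases 2 to 8) of 5 mature microRNAs: miR-541-5p, miR-208a-3p, miR-499-5p, miR-17-5p and let-7a-5p. Other microRNAs, miR-1 and miR-133 of muscle among them, were not searched. For these 5, Ncs1 alone had matches, 1 each for miR-541-5p and miR-17-5p. Below are both microRNAs, with the seed in capitals, and the windows of 30 bases in the Ncs1 3′ UTR (plus strand), with the match in capitals, at chr2:31293350-31293379 and chr2:31294989-31295018.
miR-541-5p: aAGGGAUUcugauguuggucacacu
Ncs1 window for miR-541-5p: taggtgtggcatgtgAATCCCTctgctctc
miR-17-5p: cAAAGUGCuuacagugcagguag
Ncs1 window for miR-17-5p: agctgtgtttcctttGCACTTTgggggacc

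The Ncs1 3′ UTR is long, at 3724 bases, against 137 in Rangrf. Of the 1518 mouse 3′ UTRs of similar length, 22.1% held the miR-541-5p match and 30.2% the miR-17-5p match, so either is common at that length. Mature microRNAs were not measured in these cells, and what the matches do was not tested.

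Kcnd2, Kcnd3 and Kcnip2, subunits of the transient outward channel, were near 0 in almost all cells. Kcnd2 (chr6:21215503-21729805) and Kcnd3 (chr3:105452330-105674002) each had TPM above 0 in 5 of 143 cells, and Kcnip2 (chr19:45791839-45816061) in 4. Among CM-like cells Kcnd2 was found in 3 of 26 control cells, at 0.25, 1.90 and 3.12 on the log2(TPM + 1) scale, and in 1 of 65 cKO cells, at 0.07. Kcnd3 was found in 2 control cells, at 0.05 and 2.24, and in 1 cKO cell at 3.03. Kcnip2 was found in 0 of 26 control cells, a count that allows up to 11.5% of cells, and in 2 of 65 cKO cells, at 0.16 and 0.24. The highest value of the 3 genes was 6.35 for Kcnip2, in 1 control cell of a cluster led by mitochondrial transcripts. None of the 3 was in more than 10 CM-like cells, so no difference was read, and at this detection a fall in cKO could not have been seen. A rise into many cKO cells could have been seen. A TPM of 1 was reached in 0 of 65 cKO cells for Kcnd2, 1 for Kcnd3 and 0 for Kcnip2.

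Kcnh2 (chr5:24319589-24351604, minus strand), the rapid delayed rectifier, averaged higher in cKO cells, by less than the SD across cells. In control cells it ranged from 0.00 through a median of 0.73 to 6.86 in batch 1 and from 0.00 through 1.54 to 5.63 in batch 2. In cKO cells it ranged from 0.00 through 1.25 to 7.59 in batch 1 and from 0.00 through 3.25 to 7.07 in batch 2. Control and cKO ranges overlapped almost fully in each batch. The means were 2.01 ± 2.31 in control and 2.74 ± 2.44 in cKO, a difference of 0.73 pooled, 0.62 in batch 1 and 0.73 in batch 2. Between 7786 and 9848 detected genes the difference was 0.29, with a TPM of 1 reached in 8 of 16 control and 15 of 30 cKO cells. In batch 1 of that range the means were 2.18 in control and 2.10 in cKO, and in batch 2 they were 2.62 and 3.00. A TPM of 1 was reached in 12 of 26 control cells (46.2%, interval 26.6 to 66.6) and 39 of 65 cKO cells (60%, interval 47.1 to 71.96), with overlapping intervals.

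Kcnq1 (chr7:143106362-143427042, plus strand), the slow delayed rectifier, was found in few cells of either genotype. The 18 control cells of batch 1 ranged from 0.00 through a median of 0.00 to 5.45, and the 8 of batch 2 from 0.00 through 0.29 to 4.25. The 32 cKO cells of batch 1 ranged from 0.00 through 0.00 to 4.67, and the 33 of batch 2 from 0.00 through 0.00 to 9.16. Most cells lay at 0 in either genotype, and the highest value of all was in a cKO cell. A TPM of 1 was reached in 7 of 26 control (26.9%, interval 11.6 to 47.8) and 5 of 65 cKO cells (7.69%, interval 2.55 to 17.05). The mean was 1.06 ± 1.72 in control and 0.50 ± 1.70 in cKO, a difference of -0.57 pooled, -0.57 in batch 1 and -0.80 in batch 2. Its direction turned when mean TPM was taken before the logarithm, to 1.37, from means of 4.20 in control and 12.5 in cKO. The cKO mean includes 1 cell at a TPM of 569, which had 4468 detected genes, the fewest of any cKO CM-like cell. With that cell included, the 5 positive cKO cells averaged 5.99 on the log2(TPM + 1) scale, against 3.71 in the 7 positive control cells. Kcnq1ot1, the antisense transcript that starts within Kcnq1, was found in all 91 cells, at means of 1.82 in control and 2.31 in cKO. Without strand the sense and antisense genes cannot be told apart where they overlap, and summed they differed by 0.23.

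Hcn4 (chr9:58823412-58863175, plus strand), the pacemaker channel, differed between batches of control cells more than between genotypes. In control cells it ranged from 0.00 through a median of 0.00 to 3.93 in batch 1 and from 0.00 through 1.62 to 4.05 in batch 2. In cKO cells it ranged from 0.00 through 0.00 to 5.49 in batch 1 and from 0.00 through 0.00 to 5.24 in batch 2. Only the 8 control cells of batch 2 had a median above 0, and single cKO cells exceeded every control cell. The means were 0.86 ± 1.36 in control and 0.68 ± 1.52 in cKO, a difference of -0.18 pooled, 0.09 in batch 1 and -0.98 in batch 2, so the direction was not shared by the batches. A TPM of 1 was reached in 2 of 18 and 6 of 8 control cells, and in 4 of 32 and 7 of 33 cKO cells.

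**Figure D3:**
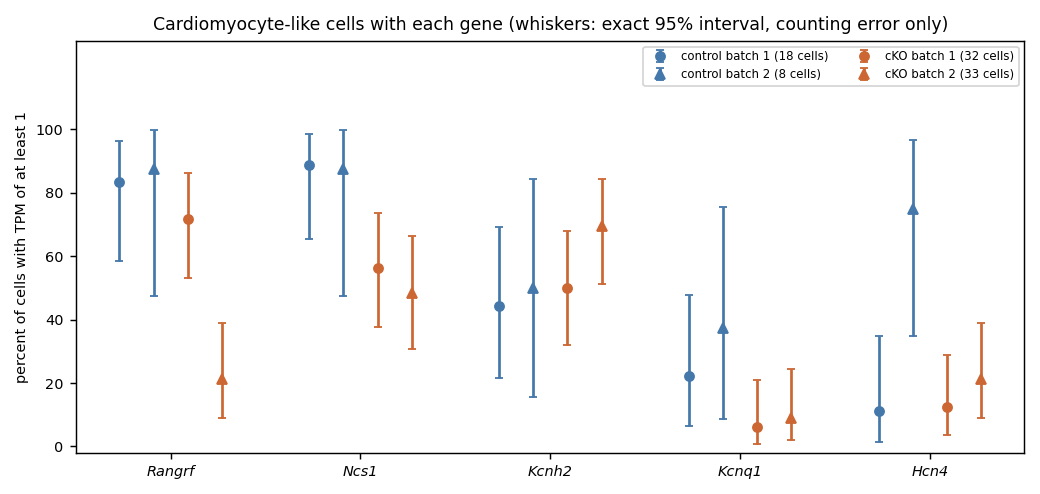
Percent of CM-like cells with a TPM of at least 1 for 5 genes, by genotype and batch, with exact 95% intervals for counting error (whiskers). Ncs1 is lower in both cKO batches, Rangrf mainly in cKO batch 2 (7 of 33 cells), and Hcn4 stands out in control batch 2 (6 of 8 cells).

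The partners were then set beside the channels. In control cells Rangrf and Ncs1 started from means of 5.40 and 5.25, while Kcnq1 and Hcn4 started from 1.06 and 0.86 and had less room to be lower, so the sizes of their differences are not compared. Of the 8 genes, 5 passed the filter of more than 10 CM-like cells. Past 1 log2 unit with the same sign in both batches, Rangrf and Ncs1 were lower and none was higher, where 6.22% of all genes tested were lower and 6.87% higher. As the genes were chosen with these values known, nothing is read from that count. At least 1 of Kcnh2, Kcnq1 and Hcn4 reached a TPM of 1 in 18 of 26 control cells (69.2%) and 42 of 65 cKO cells (64.6%). All 3 were found together in 3 cells of each genotype.

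The same genes were then placed among the other cell classes of the control ventricle. CM-like cells (26) were set beside endothelial-like (22), epicardial-like (13), erythroid-like (5) and unnamed, mitochondria-led cells (8). The classes were split unevenly between batches 1 and 2, with 18 and 8 CM-like and 7 and 15 endothelial-like cells. Epicardial-like cells numbered 4 and 9, erythroid-like 0 and 5 and unnamed 6 and 2. The part of batch in the class differences was not tested. Rangrf averaged 5.40 in CM-like, 4.61 in erythroid-like, 4.04 in epicardial-like, 3.37 in endothelial-like and 3.11 in unnamed cells. Ncs1 followed with 5.25 in CM-like, 4.13 in epicardial-like, 3.69 in erythroid-like, 2.63 in unnamed and 1.77 in endothelial-like cells. Both partners were thus present outside cardiomyocytes, and neighbouring classes in either order differed by less than the SD across cells, which was 1.97 to 3.46.

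Of the channels, Hcn4 was the one most restricted to CM-like cells. It reached a TPM of 1 in 8 of 26 CM-like cells and in 0 of 22 endothelial-like cells, a count that allows up to 13.6%, with 0 of 13 epicardial-like and 0 of 5 erythroid-like cells. Kcnh2 averaged 2.01 in CM-like, 1.54 in erythroid-like, 0.70 in epicardial-like and 0.39 in endothelial-like cells. Among Kcnh2, Kcnq1 and Hcn4, only Kcnq1 averaged higher in another class than in CM-like cells. Its mean was 2.11 ± 2.81 in endothelial-like cells (8 of 22 at a TPM of 1) and 1.06 ± 1.72 in CM-like cells. The gap was smaller than either SD. Kcnd3 and Kcnip2, near 0 in almost all cells, were also not highest in CM-like cells. Kcnd3 averaged 0.25 in endothelial-like and 0.09 in CM-like cells, and Kcnip2 0.79 in unnamed and 0.00 in CM-like cells. Classes were set by markers that include none of the 8 genes, and all endothelial-like, epicardial-like and erythroid-like cells came from control, so genotypes could not be compared in them.

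**Figure D4:**
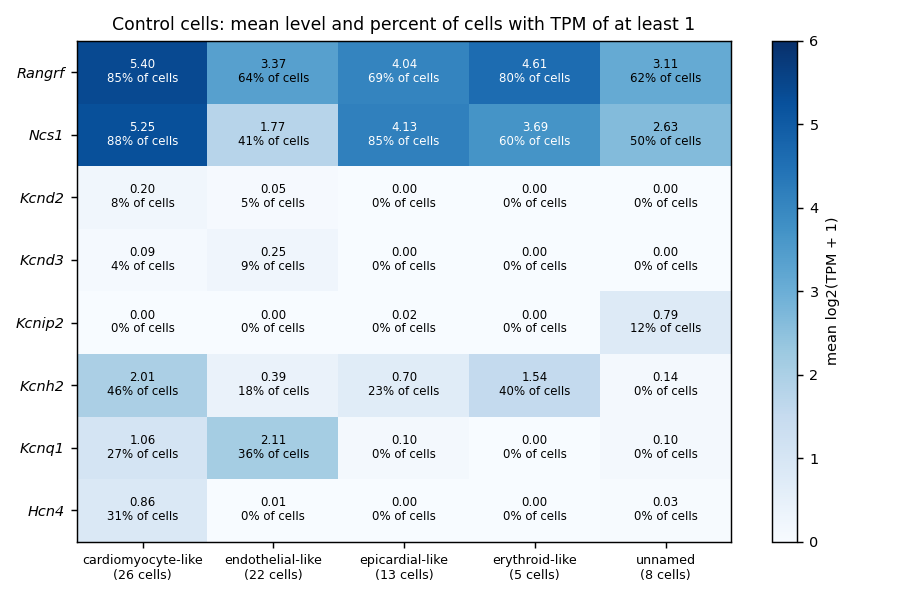
Mean log2(TPM + 1) (colour and upper number) and percent of cells with a TPM of at least 1 (lower number) for each gene in 5 classes of control cells. Rangrf and Ncs1 are highest in CM-like cells but present in every class, Hcn4 reaches a TPM of 1 in CM-like cells only, and Kcnq1 is highest in endothelial-like cells.

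The genes most like the partners across CM-like cells were sought by Pearson's r of log2(TPM + 1). Over all 91 cells, Rangrf was nearest to Npm1 (r = 0.60), a nucleolar histone chaperone, Gja1 (0.56), which encodes the gap junction protein connexin 43, and Hmgb3 (0.54), a chromatin protein, with Ncs1 at rank 76 (0.43). For Ncs1 the nearest were Slc25a5 (0.51), a mitochondrial ADP/ATP carrier, Dfna5 (0.50), a gasdermin, and Hsph1 (0.47), a heat shock protein, with Rangrf at rank 19. All 6 were lower in cKO cells, by 0.72 to 3.92 log2 units, so r over both genotypes includes the gap between them. Within the 26 control cells the nearest included 0610037L13Rik (0.78) and Rps18 (0.74) for Rangrf, and Hspb11 (0.88), Rpa3 (0.88) and Srsf6 (0.87) for Ncs1. In these control cells the partners ranked further from each other (r = 0.54), with Ncs1 at rank 207 for Rangrf and Rangrf at rank 794 for Ncs1.

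Other genes of the same pathways, in 12 lists, were spread to both sides. Of their 112 genes, 111 were in the table and 73 passed the filter. Past 1 log2 unit with the same sign in both batches, 10 were lower (Rangrf and Ncs1 among them) and 11 higher, against 6.22% and 6.87% of all genes. Their median difference was 0.09, beside 0.06 over all genes.

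Sodium channel partners other than Rangrf lay on both sides. The muscle caveolin Cav3 was lower (3.08 in control and 0.16 in cKO, a difference of -2.92) and reached a TPM of 1 in 12 of 26 control and 2 of 65 cKO cells. Ank3 (2.14) and Dlg1 (1.27), which anchor channels at the membrane, and Pkp2 (1.58), a desmosomal protein, were higher. These partners therefore did not share a direction.

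Of 6 transient outward channel genes tested, Ncs1 was lower and Dpp6, an auxiliary subunit of the same channel, was higher (0.30 in control and 1.86 in cKO, a difference of 1.56). Of 4 delayed rectifier genes, Kcne1, the beta subunit of Kcnq1, was lower (2.26 and 1.25, a difference of -1.02). Of 4 inward rectifier and ATP-sensitive channel genes, Abcc9, a sulfonylurea receptor, was lower by 1.68 and Kcnj5, an acetylcholine-gated channel subunit, was higher by 1.61. In the middle range of detected genes (7786 to 9848) Kcnj5 differed by 0.18, and with CM-like cells taken by marker counts Kcne1 differed by -0.16, both short of the threshold. One of 6 background and calcium-activated potassium channel genes was higher, Kcnk3 by 1.46. Hcn4 passed the filter as a pacemaker channel gene. Hcn2 and Hcn3 were found in 1 and 2 CM-like cells.

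Among 3 calcium channel genes linked to pacemaking, the T-type gene Cacna1h was higher (1.80 and 3.31, a difference of 1.51). Of 6 factors of the sinus node and atrioventricular canal, 1 was higher, the secreted Wnt agonist Rspo3 (1.37). Of 7 ventricular and atrial markers, a list outside the 12 and their counts, Myl2 was lower and the atrial factor Nr2f2 higher by 1.20. Among the sodium pump and exchanger genes, the exchanger Slc8a1 was higher (1.11). The Slc8a1 difference was 1.72 in batch 1 and 0.17 in batch 2.

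The relatives of the partners filled the last lists. Of 8 genes of the Ran cycle, which Rangrf takes part in, 3 were lower and none higher, with a median of -0.74. Over all genes tested, 6.22% were lower and 6.87% higher. The lower ones were the exchange factor Rcc1 (-1.51), the import factor Nutf2 (-1.31) and Ran itself (-1.07). Rcc1 turned to 0.19 between 7786 and 9848 detected genes, and Ran was -0.63 in batch 1 and -0.37 with 4 clusters. Of 8 tested relatives and partners of Ncs1, Vsnl1, another neuronal calcium sensor, was higher (0.07 in control and 2.00 in cKO, a difference of 1.93, with 0.64 in batch 1 and 3.19 in batch 2), and reached a TPM of 1 in 0 of 26 control and 28 of 65 cKO cells. Pi4kb, the lipid kinase that Ncs1 activates, differed by -0.73, within the threshold.

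**Figure D5:**
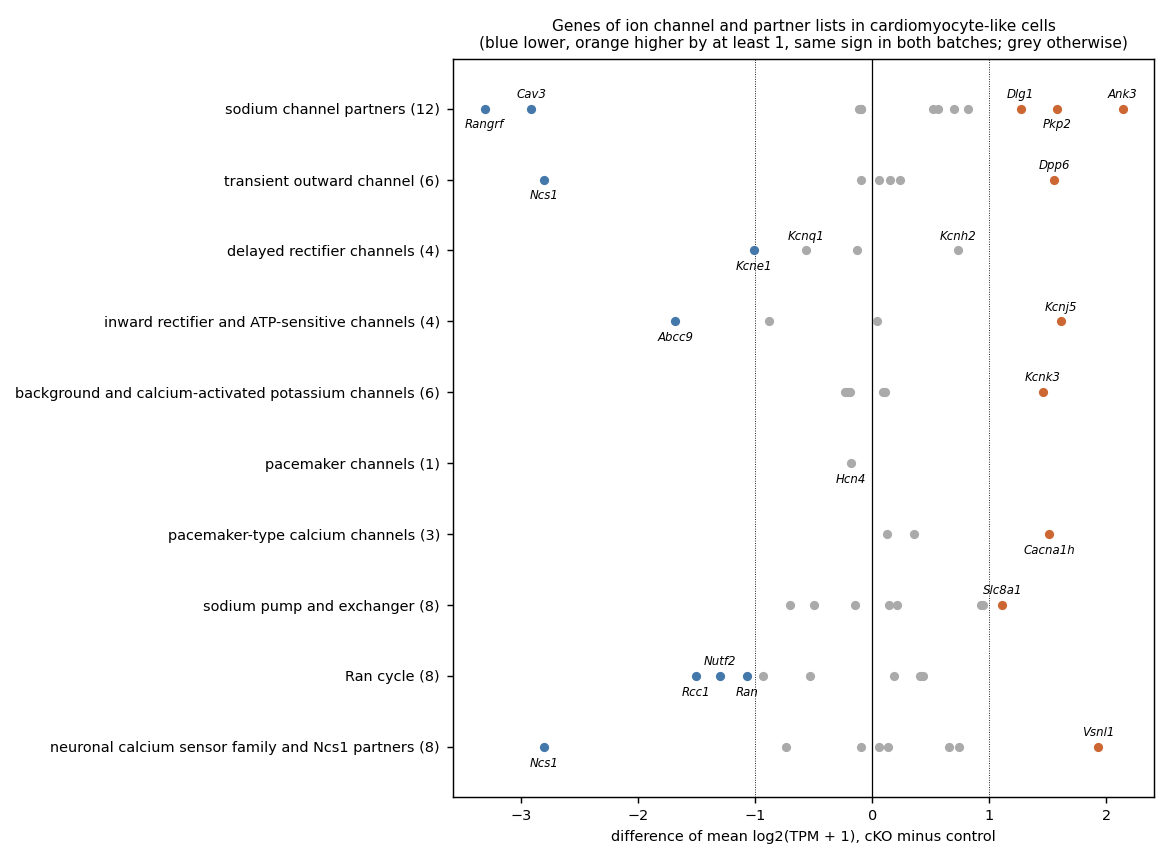
Difference of mean log2(TPM + 1), cKO minus control, for tested genes of 10 lists (number shown in brackets), coloured where past 1 (dotted lines) with the same sign in both batches. Rangrf, Cav3 and Ncs1 lie lowest, Ank3 and Vsnl1 highest, and most points fall between the dotted lines.

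Markers of other cells were also measured in the CM-like cells. By the same threshold in both batches, none of 13 endothelial, 5 epicardial and 4 erythroid markers tested was lower or higher, and of 9 mesenchymal markers Vcan was higher by 1.51. Short of that threshold, Pecam1 (0.92) and Flt1 (0.81) were higher and Eng (-0.42) lower in both batches, and the endothelial median was -0.01. Flt1 reached a TPM of 1 in 0 of 26 control and 17 of 65 cKO cells. Summed TPM of the endothelial markers had a median of 17.7 in control cells (2.00 to 229) and 36.7 in cKO cells (2.76 to 439), and that of the mesenchymal markers 78.5 (1.50 to 577) and 280 (3.82 to 1893). Their part in the differences above was not tested. Without the 3 control and 3 cKO cells that had under 5000 detected genes or over 20% mitochondrial TPM, the differences were -3.54 for Rangrf, -3.30 for Ncs1, 0.55 for Kcnh2, -0.83 for Kcnq1 and -0.26 for Hcn4.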

How the data were processed

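Single cells were picked by mouth pipette after trypsin and collagenase, and amplified by Smart-seq2, which primes on poly(A) and keeps no strand and no molecular identifiers. The deposited table holds TPM, which the authors computed with Salmon against mm10 (version and annotation release not given in the sources used here). Each cell summed to 996133 to 999999, so depth is unknown. The authors dropped cells with low mapping rates or with reporter transcripts against their genotype, a selection that works differently in embryos without Cre. Of 170 labelled samples, 143 matched a column by title, and 27 were not analysed here. All columns differed from each other, and no doublet caller was run on these hand-picked cells.

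Cells were clustered by Ward linkage (scipy 1.17.1) on the z-scored log2(TPM + 1) of 55 markers of 5 classes, divided into 5 clusters. A cluster was named where 3 or more markers of 1 class stood at least 1 log2 unit above other cells and no other class led its top 10 genes. The class is rebuilt and is not the study's annotation. Differences are mean log2(TPM + 1), cKO minus control. The pseudocount of 1 understates changes at low levels. Genes with TPM above 0 in more than 10 CM-like cells were compared by size only, and are called tested in that sense. The study ranked cells as replicates, which was not done here, as cells of 1 sample are not replicates. Shares have Clopper-Pearson 95% intervals, and the limit at a count of 0 is 3 cells. Both cover counting error only. The difference script was run on redrawn control cells with known shifts added, which checks its arithmetic only and not the part of depth or batch. Python 3.11.15, pandas 2.3.3, numpy 2.4.6 and matplotlib 3.10.9 were used.

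The genes and all lists were chosen with earlier results of these data known. Named were all 8 genes, up to 3 list genes per direction past 1 log2 unit with the same sign in both batches, the subunits Hcn2 and Hcn3, up to 3 nearest genes by r, and Dgcr8, Xist and Ddx3y as checks. Slc25a35, Kcnq1ot1 and Pi4kb were named after their values were seen. A few genes that this rule covers are not reported here. Coordinates come from GENCODE on GRCm38, and promoters and microRNAs from RefSeq on GRCm38.p6. Alternatives covered the pseudocount, the order of averaging, clustering, the filter, rescaling, depth, batch and the first number in the cell titles, whose meaning is not given.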

Additional observations from a re-analysis of the deposited data

Results flagged for a closer look

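The values below came from cells outside the comparison, the 12 cells (8 control and 4 cKO) of the cluster that stayed unnamed and was led by transcripts of mitochondria, whose median number of detected genes was 5926 in control and 5492 in cKO. Kcnh2 averaged 2.11 on the log2(TPM + 1) scale in the 4 cKO cells, with 2 of them above the highest of the 8 control cells (0.97). The 4 cells ranged from 0.00 to 6.16, and the control mean was 0.14. Hcn4 averaged 0.40 in the same 4 cells and 0.03 in the 8 control cells. That mean rests on 1 cKO cell at 1.59, the only one above the highest control value of 0.27. Both stand here because the cKO mean lay above every control cell of the cluster, and neither was tested.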

How the results depend on the processing

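Rangrf and Ncs1 kept their sign in all 26 alternatives, and both stayed past 1 log2 unit in each. Rangrf ranged from -4.82 (batch 2 alone) to -1.90 (pseudocount 10) and Ncs1 from -3.78 (pseudocount 0.1) to -1.65 (pseudocount 10). Leaving out each first number of the cell titles in turn gave -3.53 to -3.02 and -3.02 to -2.60. Kcnh2 stayed positive in all 26, from 0.29 (middle range of detected genes) to 1.22, and was past 1 with pseudocount 0.1 and with 4 clusters (1.13). Within batch 1 of that middle range its mean was 2.18 in control and 2.10 in cKO. Kcnq1 went from -1.27 (pseudocount 0.1, where it passed 1) to 1.37 (ratio of mean TPM, with 1 cKO cell at a TPM of 569). Kcnq1 was also positive (0.23) when summed with its antisense transcript. Hcn4 went from -0.98 (batch 2 alone) to 0.37 (ratio of mean TPM) and turned positive in 5 alternatives. Among the list genes, only Rangrf, Ncs1, Cav3 and Ank3 kept their call past the threshold in all 26. Ran kept it in 18, and Kcne1 and Slc8a1 in 15. Rangrf and Ncs1 were chosen for being lower in these same data, which the alternatives reuse, so nothing is read from their place among the list genes. Of the 21 list genes past the threshold, 20 kept their sign in all 26, and Rcc1 turned to 0.19 in the middle range of detected genes. The cause was not tested.

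The 10 lower list genes became 3 with pseudocount 10, 5 with 4 clusters, 5 with a rule on marker counts and 6 without title number 3, and the 11 higher ones 3 with pseudocount 10, 7 in the middle range of detected genes (62 genes tested) and 6 in batch 2 alone. With 4 clusters, 100% of cKO cells were CM-like. Over all genes, 933 lower and 1031 higher became 1750 and 1762 with pseudocount 0.1, 225 and 307 with pseudocount 10, 665 and 2316 by the ratio of mean TPM, 347 and 1814 with 4 clusters, 386 and 1374 by marker counts, 1524 and 672 after upper quartile rescaling, 603 and 2057 in batch 1 alone and 3131 and 884 in batch 2 alone. The lower share of these, 47.5%, became 60.8% without shallow or mitochondrial cells and 58.9% without title number 2. The ratio of mean TPM moved the median of all genes to 0.21. The exclusion of shallow or mitochondrial cells and the sums of overlapping genes were chosen with the data in view. No paired analysis was possible because, with cells as the samples, nothing ties a control cell to any cKO cell. Low detection limits Kcnd2, Kcnd3 and Kcnip2 most.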
